A study of Rattus norvegicus with 12 samples.

Results

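The B12 cells of this study fall into 2 sets that carry the replicate numbers 1 and 2, and their RNA profiles differed widely: the 3 arrays numbered 1 had more RNA of E-cadherin, keratins 8 and 19, club cell secretoglobin and Tspan8, and the 3 arrays numbered 2 had more RNA of Pdgfra, Cxcl12, Prrx1, lumican and decorin. B12 is a rat line of lymph node stroma. The study measured total RNA on 12 Illumina expression arrays. It asked how this stroma responds to exosomes of ASML, a rat pancreatic tumour line that metastasizes, and what the CD44 variant isoforms (CD44v) of the tumour cells add. Of the 12 arrays, 6 hold B12 RNA and are described here by number. Those numbered 1 are 1 array of cells given exosomes of wild-type ASML (wt exosomes) for 24 h, 1 of cells given exosomes of CD44v knockdown ASML (kd exosomes) for 24 h and 1 of cells left without treatment. Those numbered 2 repeat the same 3 treatments, and the column headers of the data give 24 h for the untreated cells as well. The other 6 arrays hold RNA of the exosomes themselves, 3 of wt exosomes and 3 of kd exosomes, and serve for comparison. All B12 arrays carry the same label for their cells, without genotype or passage, and what a replicate number stands for is not stated in them.

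The comparison by number was selected on the signals of these same 6 arrays, which had shown it. Its values are therefore a description, without a test, and nothing below is supported by them. A difference is the log2 signal on a number 1 array minus that on the number 2 array of the same treatment. It is given as the mean over the 3 treatments with the SD of the 3 differences, and this SD also holds whatever the treatments changed. Signals of single arrays are in intensity units over the array's background and are listed throughout in the order wt exosomes, kd exosomes, untreated. A negative value lies below the background estimate. Whether the arrays of the 2 numbers overlap was judged on the normalized log2 signals.

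Epithelial cells are joined by E-cadherin junctions and tight junctions and build their intermediate filaments from keratins such as keratins 8, 18 and 19. Fibroblasts instead lie in a collagen matrix that they secrete, use vimentin filaments and carry the receptor PDGFRA. Fibroblast-like reticular cells are the main stroma of lymph nodes, where they hold the conduit network and attract lymphocytes and dendritic cells with the chemokines CXCL12, CCL19 and CCL21.

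All 12 arrays were on 1 chip. The mean signal over background was 505 to 562 on the number 1 arrays, 580 to 588 on the number 2 arrays and 100.1 to 299 on the exosome arrays. Of 21946 probes, 53.2% to 54.3% were detected on number 1 arrays, 53.2% to 53.7% on number 2 arrays and 42.8% to 52.2% on exosome arrays. The number of arrays, 1 for each treatment and number, limits the precision of every value below. Between B12 arrays, the rank correlation of the signals over 11999 probes was 0.958 to 0.978 for the 6 pairs with the same number. It was 0.867 to 0.904 for the 3 pairs with the same treatment and different numbers, and 0.851 to 0.903 for the 6 remaining pairs. The first principal component held 76.5% of the variance and placed the number 1 arrays at -51, -47.3 and -61.4 and the number 2 arrays at 42.6, 62.5 and 54.7. The labels of treatment thus separated the B12 arrays less than the number did.

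A probe was counted as different when its signal differed at least 2-fold in the same direction in all 3 treatments. Of the 11999 probes kept, 534 (4.45%) were higher and 559 (4.66%) lower in number 1, and 10906 (90.9%) met neither condition. Among the 8154 genes with a named probe, 401 (4.92%) were higher and 417 (5.11%) lower in number 1. Many of these were not switched off in the other number: 336 of the 534 higher probes were also detected on all 3 number 2 arrays and 64 on none of them, and 336 of the 559 lower probes were detected on all 3 number 1 arrays and 117 on none. The lower side reached further. A mean difference of at least 4 in log2 was found for 26 higher and 95 lower probes. Where a probe was at or near background in a set, the size of its difference also depends on the background correction. Without a minimum size, 2562 probes (21.4%) had all number 1 arrays above all number 2 arrays and 2369 (19.7%) had them below. For genes these were 1830 (22.4%) and 1714 (21.0%). The shares of genes called, 4.92% higher and 5.11% lower, are the background for every count of called list members below. In RNA from a whole culture, fewer cells of a type and less RNA in each cell cannot be told apart.

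**Figure D1:**
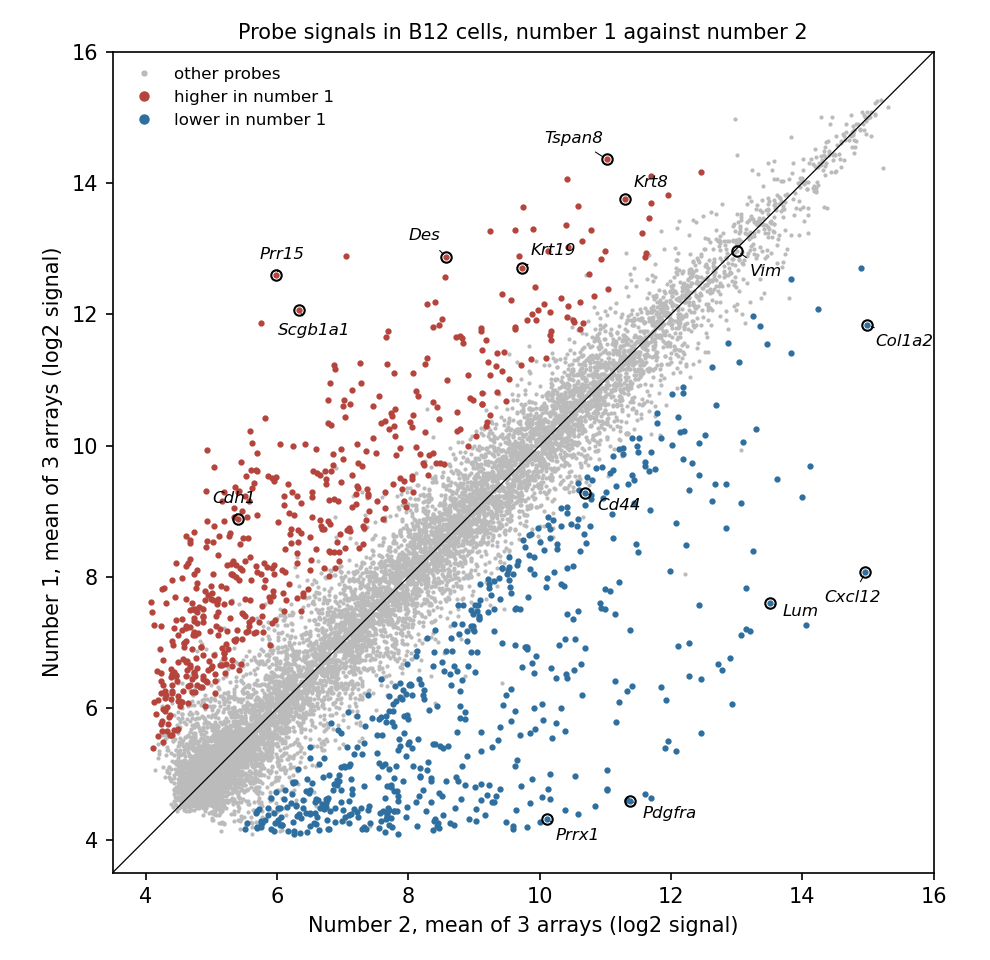
Each point is 1 of 11999 probes, placed by its mean log2 signal on the 3 number 2 arrays (horizontal) and the 3 number 1 arrays (vertical); the line marks equal signal. Red points were at least 2-fold higher and blue points at least 2-fold lower in number 1 in all 3 treatments; Cdh1, Krt8, Krt19, Tspan8, Scgb1a1, Prr15 and Des lie above the line, Pdgfra, Prrx1, Lum, Cxcl12, Col1a2 and Cd44 below it, and Vim close to it.

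The epithelial name fitted number 1 only in part. Of 12 defining epithelial markers, 10 had a named probe, 5 were kept, and 4 of these were called higher in number 1. Summed over the 10 probes, the signal over background was 15511 to 31093 on number 1 arrays, with 5 to 6 probes detected, against 2823 to 4335 on number 2 arrays, with 4 to 5 detected. Keratins 8 and 19 made up most of each sum. E-cadherin (Cdh1), the adhesion molecule of epithelial junctions, had 474, 342 and 536 on the number 1 arrays, against 67.1, 12.3 and 16.7 on the number 2 arrays. All 3 number 1 arrays lay above all 3 number 2 arrays, with a log2 difference of 3.48 ± 0.92 (SD, n = 3 treatments). Among the number 2 arrays, the one with wt exosomes was highest. Keratin 8 (Krt8), a filament protein of simple epithelia, had 12631, 11961 and 15298 on the number 1 arrays, against 3182, 2042 and 2875 on the number 2 arrays, a difference of 2.45 ± 0.34, so that it was strong in both sets and stronger in number 1. Keratin 19 (Krt19) had 5499, 3052 and 14919.7 on the number 1 arrays, against 1008, 719.8 and 910.0 on the number 2 arrays, and the groups did not overlap (2.98 ± 1.11). The untreated number 1 array had by far the most of it. The epithelial transcription factor Elf3 had 166, 113 and 298 on the number 1 arrays, against 42.3, 7.76 and 7.34 on the number 2 arrays (2.63 ± 1.16), and was detected on 1 number 2 array.

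The rest of the defining epithelial list was at background or not called. Epcam, a surface protein of nearly all simple epithelia, had -11.8, -13.3 and -9.92 on the number 1 arrays, against -9.03, -23 and -11 on the number 2 arrays, and was detected on none of the 6. The tight junction gene Cldn3, keratin 18 (Krt18), the usual partner of keratin 8, and the epithelial transcription factor Grhl2 were likewise detected on none of the 6 arrays. Esrp1, which directs epithelial splicing, lay near background, with 12.4, 9.33 and 9.89 on the number 1 arrays, against -3.27, 2.74 and 7.18 on the number 2 arrays, and was detected on 2 number 1 arrays. Rab25, a GTPase of epithelial membrane recycling, had 17.1, 18.5 and 29.6 on the number 1 arrays, against 30.5, 26.9 and 23.3 on the number 2 arrays, and the sets overlapped. Cldn4 and Cldn7 were not analysed here. The arrays numbered 1 are therefore named by their number.

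Defining fibroblast markers were lower in number 1 or not called. Of 12 such markers, 11 had a probe, 10 were kept, 5 were called lower in number 1 and 0 higher. Their summed signal was 22483 to 39355 on number 1 arrays, with 8 to 9 probes detected, against 98050.1 to 110244 on number 2 arrays, with 10 detected. The receptor gene Pdgfra had 2.52, -0.492 and 16.2 on the number 1 arrays, against 2905, 2718 and 2694 on the number 2 arrays. It was detected on 1 number 1 array and on all number 2 arrays, a difference of -6.78 ± 0.43. Prrx1, a transcription factor of connective tissue cells, was detected on no number 1 array, with 3.99, -0.946 and -10.8 on the number 1 arrays, against 1002, 1575 and 954 on the number 2 arrays, and was at least 46.7-fold lower in number 1. The small proteoglycan lumican (Lum), which spaces collagen fibrils, had 221, 211 and 109 on the number 1 arrays, against 8767, 14811 and 13968 on the number 2 arrays (-5.91 ± 0.76). Decorin (Dcn), a related proteoglycan, had 1641, 618 and 465 on the number 1 arrays, against 17829, 19802 and 17480.4 on the number 2 arrays (-4.42 ± 0.89). In both, number 1 kept a clear signal well under that of number 2. The collagen I chain Col1a2 had 3853, 4161 and 2460.0 on the number 1 arrays, against 33645, 35192 and 33059 on the number 2 arrays, a difference of -3.15 ± 0.33.

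The other defining fibroblast genes were not called. Vimentin (Vim) had 8129, 7402 and 6893 on the number 1 arrays, against 7998, 9958 and 8631 on the number 2 arrays. Fibronectin (Fn1) had 17065, 17557 and 10811 on the number 1 arrays, against 21019, 20484 and 17348 on the number 2 arrays. Both were strong on all 6 arrays, and their sets overlapped. Collagen III (Col3a1) had 6971, 6952 and 1315 on the number 1 arrays, against 2872, 3535 and 4679 on the number 2 arrays. Here the treated number 1 arrays were above all number 2 arrays, and the untreated one was below them. Col1a1 showed the same low untreated array, with 1165, 1354 and 171 on the number 1 arrays, against 1595, 1786 and 1834 on the number 2 arrays. Twist1, a mesenchymal transcription factor, had 303, 205 and 237 on the number 1 arrays, against 407, 382 and 609 on the number 2 arrays. Col1a1 and Twist1 were lower on every number 1 array, but not 2-fold in each treatment. Thy1 was detected on none of the 6 arrays, and Pdgfrb was not analysed here.

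**Figure D2:**
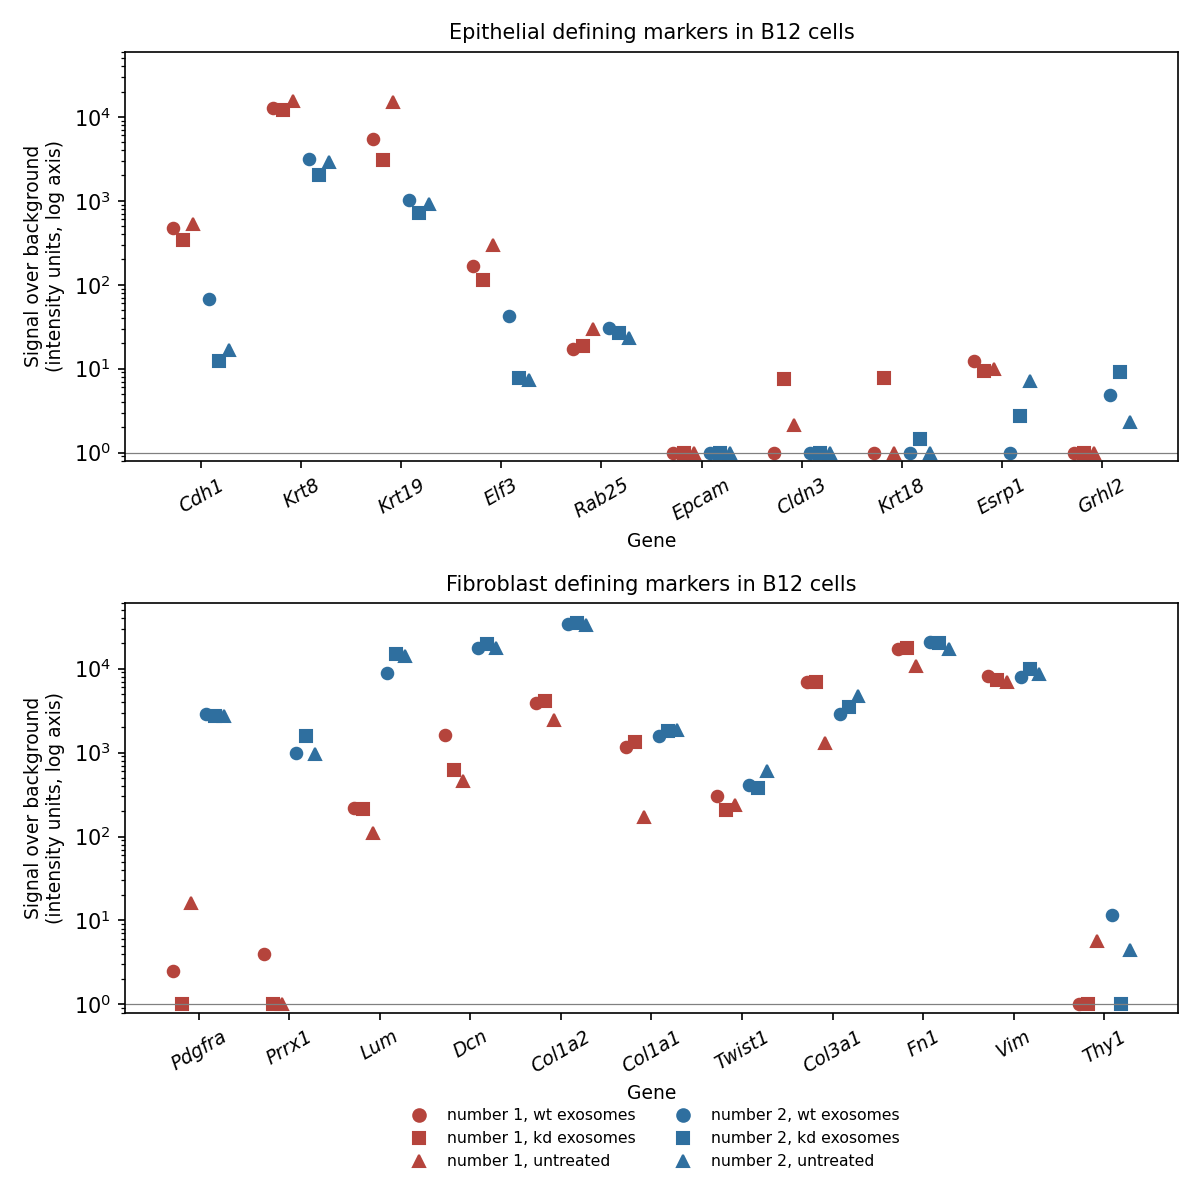
Signal over background (intensity units, log axis) of the defining epithelial markers (top) and defining fibroblast markers (bottom) on the 6 B12 arrays, number 1 in red left of number 2 in blue, with circles for wt exosomes, squares for kd exosomes and triangles for untreated cells; values under 1 are drawn at 1, on the grey line. Cdh1, Krt8, Krt19 and Elf3 were higher on all number 1 arrays, Pdgfra, Prrx1, Lum, Dcn and Col1a2 lower, Vim and Fn1 overlapped, and Epcam was at background on all 6.

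Factors such as Snai1 and Zeb1 bind the sequence CAGGTG, an E-box, in genes of epithelial junctions, which is why promoters of defining genes are shown. The windows run from 250 bases before to 50 bases after each gene's start, are from RefSeq on GRCr8, and are written 5′ to 3′ on the gene's strand. CAGGTG or its reverse complement CACCTG is in capitals. The promoters of Cdh1, Krt19 and Dcn were not used here. Krt8 (chr7:135010290-135010589, minus strand) and Elf3 (chr13:49247037-49247336, minus strand) were higher in number 1, Pdgfra (chr14:33408467-33408766, minus strand) was lower, and Epcam (chr6:12649629-12649928, minus strand) was at background in both sets:
Krt8: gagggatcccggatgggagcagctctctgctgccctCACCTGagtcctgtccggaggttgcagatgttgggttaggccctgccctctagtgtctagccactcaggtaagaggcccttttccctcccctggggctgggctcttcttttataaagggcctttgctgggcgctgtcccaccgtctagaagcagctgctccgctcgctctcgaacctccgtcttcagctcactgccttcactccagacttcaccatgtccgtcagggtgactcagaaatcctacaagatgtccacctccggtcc
Elf3: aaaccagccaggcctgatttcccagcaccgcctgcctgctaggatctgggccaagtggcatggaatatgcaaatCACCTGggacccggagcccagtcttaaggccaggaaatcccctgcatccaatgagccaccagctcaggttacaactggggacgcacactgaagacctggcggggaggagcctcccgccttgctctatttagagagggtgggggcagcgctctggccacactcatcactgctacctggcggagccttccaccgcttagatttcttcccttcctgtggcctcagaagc
Epcam: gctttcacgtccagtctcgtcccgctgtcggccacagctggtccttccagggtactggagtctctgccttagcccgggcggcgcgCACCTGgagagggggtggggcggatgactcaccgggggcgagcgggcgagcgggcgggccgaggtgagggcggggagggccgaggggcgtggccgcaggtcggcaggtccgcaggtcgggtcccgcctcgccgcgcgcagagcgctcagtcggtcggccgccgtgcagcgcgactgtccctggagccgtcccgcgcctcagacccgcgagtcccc
Pdgfra: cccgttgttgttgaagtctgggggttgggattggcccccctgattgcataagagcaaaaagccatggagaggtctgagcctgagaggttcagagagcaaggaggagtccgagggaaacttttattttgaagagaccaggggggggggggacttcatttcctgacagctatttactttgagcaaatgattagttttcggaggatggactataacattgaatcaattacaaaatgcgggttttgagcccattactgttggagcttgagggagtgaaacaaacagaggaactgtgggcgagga

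The motif stood once each in the windows of Krt8, Elf3 and Epcam and not in that of Pdgfra. It also stood once in those of Col1a2 and Lum, which were lower in number 1, and was not found in those of Prrx1 and Twist1. Over all promoters in the table, 6304 of 33469 (18.8%) held at least 1 copy on either strand, and among the genes kept here 1166 of 6831 (17.1%) did. Of the genes called higher in number 1, 83 of the 317 with a promoter in the table (26.2%) held it. Of those called lower, 40 of 324 (12.3%) did. A match of letters is not a binding site, and these shares are given as a description. Of the factors named above, Snai1 was kept and not called, and Zeb1 was not analysed.

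Junction genes that passed the filter leaned to number 1. The adhesion and junction list had a probe for 29 of 38 genes, and 17 were kept; 6 were called higher and 0 lower, with a median difference of 0.75 against 0.02 over all probes. Members that pass a filter through the set in which they are high must differ, so such counts describe the members and do not support the contrast. Without the filter the median was 0.27. The tight junction protein F11r had 3340.0, 2630.0 and 3164 on the number 1 arrays, against 305, 91.6 and 252 on the number 2 arrays (4.01 ± 0.67). The tricellular junction receptor Lsr had 2169, 1858 and 2564 on the number 1 arrays, against 289.7, 37.1 and 98.5 on the number 2 arrays, a difference of 4.29 ± 1.28. Connexin 26 (Gjb2), a gap junction protein, had 439, 159.6 and 1088 on the number 1 arrays, against 32.7, 5.19 and 10.3 on the number 2 arrays, with 2 of the number 2 arrays detecting it. Plakoglobin (Jup), shared by desmosomes and adherens junctions, had 1592, 1088 and 2166 on the number 1 arrays, against 273, 306 and 432 on the number 2 arrays (2.3 ± 0.37). P-cadherin (Cdh3) was the other call, with a mean difference of 1.94.

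Of 14 keratins, 8 had a probe and 3 were kept; Krt8 and Krt19 were called higher. The third, keratin 7 (Krt7), had 257, 502 and 8.14 on the number 1 arrays, of which 2 detected it, against 34.2, 8.19 and 18 on the number 2 arrays, of which 2 detected it. It was high on both treated number 1 arrays and near background on the untreated one, so the sets overlapped. Of 27 epithelial transcription and splicing factors, 18 had a probe and 8 were kept, 4 of them higher in number 1 and 0 lower. Klf5, a factor of intestinal and other epithelia, had 1580.0, 988 and 1626 on the number 1 arrays, against 344, 142 and 176 on the number 2 arrays (2.75 ± 0.64). Cdx2, the master regulator of intestinal epithelium, had 346, 293 and 604 on the number 1 arrays, against 154, 70.1 and 67.3 on the number 2 arrays, so that the difference of 2.02 ± 1.06 was smallest with wt exosomes. Klf5 and Cdx2 were above number 2 on each array. Ehf, an Ets factor of epithelia, had 84.8, 54.7 and 122 on the number 1 arrays, against 23.8, -0.207 and 43.3 on the number 2 arrays, of which 2 detected it. Gata4 was higher on every number 1 array without reaching 2-fold in each treatment, with 205, 155 and 303 on the number 1 arrays, against 64.4, 106 and 69.9 on the number 2 arrays.

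Of 12 epithelial surface proteases and their inhibitors, 11 had a probe and 6 were kept, with 0 called in either direction and a median difference of -0.04. With 6 genes, a count of 0 is near the share over all genes, 4.92% higher and 5.11% lower. Spint2, an inhibitor of matriptase, had 2925, 2393 and 2804 on the number 1 arrays, against 3011, 3476 and 3199 on the number 2 arrays. Matriptase itself (St14) had 18, 32.6 and 40.2 on the number 1 arrays, against 35.1, 30.6 and 20.5 on the number 2 arrays. Prostasin (Prss8) had 185, 218 and 190.2 on the number 1 arrays, against 226, 258 and 241 on the number 2 arrays. After normalization, all 3 overlapped between the sets. The secreted protease Htra1 was lower on every number 1 array but not 2-fold in each treatment (-0.56 ± 0.42).

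Secretory epithelial genes held some of the widest gaps. Of 29, 24 had a probe and 13 were kept, 5 called higher, 1 lower and 7 not called, with a median of 0.86. Club cell secretoglobin (Scgb1a1), a secreted protein of airway epithelium, had 5048, 5272 and 2369 on the number 1 arrays, against 156, 31 and 54.5 on the number 2 arrays (5.72 ± 1.08). The tetraspanin Tspan8, a surface protein of gut and of metastasizing carcinoma, had 20167, 17219.7 and 24797 on the number 1 arrays, against 5030.5, 1094 and 1831 on the number 2 arrays (3.35 ± 1.11). For both, the gap was narrowest with wt exosomes. The antiprotease Slpi had 13546, 21325 and 6377 on the number 1 arrays, against 3941, 1293 and 808 on the number 2 arrays. Gcnt3, which branches mucin glycans, had 220.1, 84 and 818 on the number 1 arrays, against 51.9, 35.4 and 52 on the number 2 arrays. Clusterin (Clu) was the fifth call (1.71). These 5 were higher in each treatment. Lipocalin 2 (Lcn2), a siderophore-binding protein made by inflamed epithelium, went the other way, with 57.4, 316 and 10.9 on the number 1 arrays, against 6422, 6785 and 4967 on the number 2 arrays (-6.0 ± 1.69). In number 1 it was highest with kd exosomes.

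By size alone, the 10 largest positive differences belonged to Prr15, Gsta5, Anxa3, Scgb1a1, Fxyd3, Smpd3, Slc51a, Cyp4b1, Des and Lsr, from 4.29 to 6.6 in log2. Prr15 had 6728, 3707 and 7367 on the number 1 arrays, against 52.3, 19.2 and 100.1 on the number 2 arrays. The glutathione transferase Gsta5 had 3664, 2906 and 3823 on the number 1 arrays, against 154, 14.4 and 16 on the number 2 arrays. Annexin A3 (Anxa3) had 8253, 7194 and 6081 on the number 1 arrays, against 514, 39 and 70.6 on the number 2 arrays. For Gsta5 and Anxa3, the number 2 array with wt exosomes stood above the other two number 2 arrays. The sodium pump regulator Fxyd3 had 832, 307 and 2978 on the number 1 arrays, against 9.14, 16.1 and 21.2 on the number 2 arrays, and was detected on 2 number 2 arrays. The bile acid transporter subunit Slc51a had 1126, 531 and 3521 on the number 1 arrays, against 146, 9.82 and 28.6 on the number 2 arrays, and was detected on 2 number 2 arrays too. The cytochrome Cyp4b1 had 3452, 932 and 3532 on the number 1 arrays, against 286, 36.7 and 97.7 on the number 2 arrays. Fxyd3, Slc51a and Cyp4b1 were highest in number 1 without treatment and lowest with kd exosomes. Smpd3, a neutral sphingomyelinase that acts in exosome release, had 1223, 1308 and 914 on the number 1 arrays, against 101, 20.5 and 11 on the number 2 arrays (4.65 ± 1.11). Desmin (Des), a filament protein of muscle, was also in this group, with 7828, 4935 and 8943 on the number 1 arrays, against 476, 215 and 525 on the number 2 arrays (4.3 ± 0.28).

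The 10 largest negative differences belonged to Cdh13, Fabp3, Cxcl12, Fibin, Esm1, Pdgfra, Mgp, Aebp1, Epyc and Pltp. They ran from -7.06 to -6.52, beyond the size of the positive ones other than that of Prr15. T-cadherin (Cdh13), which lacks a cytoplasmic tail, had 4.53, -5.82 and 20.4 on the number 1 arrays, against 2297, 4261 and 4454 on the number 2 arrays, and was detected on 1 number 1 array. The fatty acid-binding protein Fabp3 had 25.8, -10.3 and 6.31 on the number 1 arrays, against 4869, 3464 and 2094 on the number 2 arrays, also with 1 number 1 array detecting it. Both were at or near background on the other two. Matrix Gla protein (Mgp), an inhibitor of calcification, had 179, 237 and 55.5 on the number 1 arrays, against 24901, 21766 and 10781 on the number 2 arrays. In both sets it was lowest on the untreated array. Endothelial cell-specific molecule 1 (Esm1) had 17.8, 33.5 and 52.9 on the number 1 arrays, against 6456, 6385 and 5415 on the number 2 arrays. The collagen-binding protein Aebp1 had 25.4, 19.4 and 29.5 on the number 1 arrays, against 5230.2, 5647 and 3341 on the number 2 arrays. In number 2, both were strong. Fibin had 55.3, 66.4 and 33.2 on the number 1 arrays, against 7603, 9595 and 7837 on the number 2 arrays. The phospholipid transfer protein Pltp had 29.3, 17.7 and 31.8 on the number 1 arrays, against 4346, 4943 and 3263 on the number 2 arrays. All 4 had a weak signal on each number 1 array. Epiphycan (Epyc), a small proteoglycan of cartilage, was detected on no number 1 array and was at least 97.8-fold lower there.

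Mesenchymal transcription factors were mixed but leaned to number 2. Of 30, 20 had a probe and 15 were kept, 5 called lower and 1 higher in number 1, with a median of -0.78. Osr1, a factor of embryonic mesenchyme, had 39, 36.5 and 46.6 on the number 1 arrays, against 1033, 1061 and 1177 on the number 2 arrays (-4.22 ± 0.13). Nfatc4 had 224, 213 and 166 on the number 1 arrays, against 1916, 2201 and 2278 on the number 2 arrays. Tcf4, an E-protein, had 79.7, 86.8 and 65.4 on the number 1 arrays, against 461, 601 and 508 on the number 2 arrays. These differences were nearly the same in the 3 treatments. Msx1 was the other lower member (-2.13) besides Prrx1. Tbx15, a T-box factor of limb and skin mesenchyme, ran the opposite way, with 1995, 1878 and 1973 on the number 1 arrays, against 500.4, 296 and 383 on the number 2 arrays (2.41 ± 0.43). Snai1 and Zeb2 were kept and not called, and Zeb1 was not analysed here.

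Matrix genes of fibroblasts gave the longest set of lower members. Of 45 fibrillar collagens and matrix genes, 35 had a probe and 31 were kept; 13 were called lower and 2 higher in number 1, with a median of -0.81. The median depended on the untreated cells: it was -0.47 with wt exosomes, -0.39 with kd exosomes and -2.13 without treatment, and over the treated cells alone it was -0.39. Fibulin 5 (Fbln5), which assembles elastic fibres, had 120.1, 174 and -0.252 on the number 1 arrays, of which 2 detected it, against 3091, 2941 and 2554 on the number 2 arrays. Fibromodulin (Fmod), a collagen-binding proteoglycan, had 125, 101 and -11.5 on the number 1 arrays, of which 2 detected it, against 897, 1520.3 and 941 on the number 2 arrays. In both, the untreated number 1 array was at background and the treated ones were not. Biglycan (Bgn, -2.0), Col6a1 (-2.87), elastin (Eln, -2.2), fibrillin 1 (Fbn1, -1.77), osteoglycin (Ogn, -3.25), periostin (Postn, -3.11), Mfap4 (-2.58) and Efemp2 (-1.77) were the remaining lower members besides Lum, Dcn and Col1a2. Collagen XIV (Col14a1), a fibril-associated collagen, was higher, with 4547, 5372 and 3440.2 on the number 1 arrays, against 2114, 142 and 116 on the number 2 arrays. On the number 2 side, the array with wt exosomes was well above the other two. Fibulin 1 (Fbln1) was higher as well (2.83).

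Among 26 mesenchymal surface and contractile genes, 18 had a probe and 14 were kept, 4 called lower and 1, Des, higher. The median was -0.37. Cadherin 11 (Cdh11), which joins fibroblasts, was detected on no number 1 array and was at least 6.53-fold lower. The myosin light chain Myl9 had 72.9, 108 and 6.78 on the number 1 arrays, of which 2 detected it, against 1397, 658 and 1051 on the number 2 arrays (-3.92 ± 1.52). The receptor kinase Axl had 265, 219 and 226 on the number 1 arrays, against 898, 916 and 1177 on the number 2 arrays; its second probe gave a mean difference of -2.25, against -1.88 for this one. Cdh2 was not analysed here.

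Genes of lymph node stroma included some of the widest gaps in favour of number 2. Of 23, 20 had a probe and 14 were kept, 6 called lower and 1 higher in number 1, with a median of -1.37. Ccl21, Pdpn, Cxcl13, Tnfsf11, Tnfsf13b and Lepr had a probe that did not pass the filter. Summed over the 20, the signal was 7943 to 22075 on number 1 arrays, against 68728 to 106554 on number 2 arrays, with 13 to 15 and 13 to 14 probes detected. Cxcl12, the chemokine that holds lymphocytes in niches, had 259.8, 305 and 182 on the number 1 arrays, against 34024, 35258 and 29879 on the number 2 arrays (-6.88 ± 0.23). Number 1 cells still gave a clear signal. The adhesion molecule Vcam1, through which stroma binds lymphocytes, had 163, 124 and 55.7 on the number 1 arrays, against 6762, 6436 and 2373 on the number 2 arrays (-5.15 ± 0.21). Icam1 had 850.2, 764 and 480.4 on the number 1 arrays, against 19552, 15592 and 7993 on the number 2 arrays (-4.12 ± 0.33). In both sets, each was lowest without treatment. The BMP antagonist gremlin (Grem1), made by reticular cells, had 109, 73.9 and 92.8 on the number 1 arrays, against 7423, 10287 and 7165 on the number 2 arrays (-6.13 ± 0.44). Ccl19, which draws T cells, was detected on no number 1 array, with -14.9, -6.78 and -22.1 on the number 1 arrays, against 917, 168 and 231 on the number 2 arrays, and was at least 14-fold lower. The alarmin Il33 was the 1 higher member (2.64).

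Of 28 chemokines and cytokines, 23 had a probe and 16 were kept, 1 higher and 1 lower, with a median of 0.07. That count is near the share over all genes, 4.92% higher and 5.11% lower. Ccl7, a monocyte attractant, had 548, 1670.0 and 150.1 on the number 1 arrays, against 11278, 10512 and 6439 on the number 2 arrays (-3.93 ± 1.35). In number 1 it was highest with kd exosomes. Interleukin 18 (Il18), made by epithelia and macrophages, was detected on no number 2 array, with 227, 109.7 and 200.5 on the number 1 arrays, against -7.74, -7.97 and 5.65 on the number 2 arrays, and was at least 8.46-fold higher in number 1. The neutrophil attractant Cxcl2 changed order with treatment, with 532, 2206 and 161 on the number 1 arrays, against 2123, 91.9 and 20.1 on the number 2 arrays. Ccl2 was lower on each number 1 array (-1.55 ± 0.87) without a call.

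Matrix protease genes were lower in number 1 or uncalled. Of 30 genes, 25 had a probe and 19 were kept, 8 called lower and 0 higher in number 1, with a median of -1.49. Cathepsin K (Ctsk), a collagenase of bone and fibroblasts, had 16.2, 23.3 and 7.63 on the number 1 arrays, against 897, 2406 and 1717 on the number 2 arrays, with 2 number 1 arrays detecting it. The aggrecan-cleaving Adamts5 and the procollagen N-proteinase Adamts2 were detected on no number 1 array. They were at least 36.2-fold and 32.1-fold lower there. Mmp23 was at least 14.7-fold lower, likewise with no number 1 array detecting it. Adamts1 had 384, 396 and 64.8 on the number 1 arrays, against 4488, 1848 and 1873 on the number 2 arrays, again with the untreated number 1 array lowest. The membrane collagenase Mmp14 (-2.35) and the inhibitors Serpine2 (-1.94) and Serpinf1 (-1.56) completed the calls.

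Growth factor genes divided by family member. Of 35 ligands and receptors, 30 had a probe and 20 were kept, 3 called higher and 4 lower, with a median of -0.33. The receptor Fgfr3 had 443, 362 and 286 on the number 1 arrays, against 54.7, 23.9 and 22.7 on the number 2 arrays (3.04 ± 0.4). The ligand Fgf1 had 163, 171 and 142 on the number 1 arrays, against 11.3, 1.33 and 14.1 on the number 2 arrays, of which 2 detected it (2.82 ± 0.4). Both stood above number 2 on all arrays. Keratinocyte growth factor (Fgf7), a fibroblast product that acts on epithelium, had 300.0, 230.5 and 60.6 on the number 1 arrays, against 815, 773 and 853 on the number 2 arrays (-2.11 ± 1.05). The EGF receptor ligand Tgfa had 481, 525 and 456 on the number 1 arrays, against 2914, 3648 and 3942 on the number 2 arrays (-2.66 ± 0.14). Epiregulin (Ereg), another such ligand, had 30, 6.85 and 12.5 on the number 1 arrays, of which 2 detected it, against 489, 190.4 and 246 on the number 2 arrays. Both were lower in number 1. Pdgfc (1.24) was the other higher member and Bdnf (-2.1) the other lower one.

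Of 42 TGF-beta, BMP and Wnt pathway genes, 35 had a probe and 28 were kept, 8 called lower and 1 higher in number 1. Over all genes, 5.11% were called lower and 4.92% higher. The median of the list was -0.31. The ligand Bmp4 had 31.2, 30.4 and 30.3 on the number 1 arrays, against 1332, 902 and 1429 on the number 2 arrays (-4.63 ± 0.34). The activin subunit Inhba had 5.47, 29.9 and 0.44 on the number 1 arrays, against 628, 419.9 and 536 on the number 2 arrays, with 1 number 1 array detecting it, and the activin antagonist follistatin (Fst) had 419.8, 696 and 122 on the number 1 arrays, against 8792, 3644 and 4083 on the number 2 arrays. All 3 were lower on each number 1 array. Sfrp2, a modulator of Wnt signals, was detected on no number 1 array and was at least 22-fold lower. Tgfb1 (-3.32), Bmp6 (-1.81) and the co-receptor Tgfbr3 (-1.71) were lower as well, besides Grem1. Wnt4, which acts in epithelial tubule formation, was higher (3.43).

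Hox genes, which record the position of a cell's origin along the body axis, differed in both directions. Of 52, 21 had a probe and 11 were kept, 3 called higher and 3 lower, against 4.92% and 5.11% of all genes. Hoxb2 was detected on no number 1 array, with -1.28, -19.6 and -7.1 on the number 1 arrays, against 664, 825 and 890.1 on the number 2 arrays, and was at least 32.7-fold lower there. Hoxa2 had 6.64, 2.86 and 20.7 on the number 1 arrays, of which 1 detected it, against 116, 300.2 and 268 on the number 2 arrays. Hoxb4 had 25.2, 17.9 and -0.807 on the number 1 arrays, of which 2 detected it, against 86.2, 137 and 105 on the number 2 arrays. These 3 lower members have the lowest paralog numbers among the 6 called. The other kept members, Hoxb5, Hoxb8, Hoxc4, Hoxc9 and Hoxd4, were not called, so this order does not extend to the whole list. The posterior gene Hoxa13 had 93.7, 44.3 and 87.9 on the number 1 arrays, against 11, -3.32 and -13.1 on the number 2 arrays, with 1 number 2 array detecting it. Hoxb7 had 1612, 1262 and 1544 on the number 1 arrays, against 641, 203 and 303 on the number 2 arrays (2.17 ± 0.79). Hoxa7 had 1263, 1024 and 1063 on the number 1 arrays, against 305, 294 and 310.0 on the number 2 arrays (1.94 ± 0.08). All 3 were higher in number 1.

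Of 24 basement membrane and hemidesmosome genes, 14 had a probe and 11 were kept, 3 called higher and 2 lower, with a median of -0.02. The hemidesmosome integrin Itgb4 had 1131, 666 and 2250.0 on the number 1 arrays, against 265, 107 and 328 on the number 2 arrays (2.52 ± 0.5). Its partner Itga6 had 79.6, 47.3 and 57.6 on the number 1 arrays, against -9.2, 3.37 and 18.8 on the number 2 arrays, of which 1 detected it. The laminin chain Lamb3, their ligand's subunit, had 65.2, 54.6 and 59.1 on the number 1 arrays, against 11.9, 8.84 and 13.4 on the number 2 arrays, of which 2 detected it (1.49 ± 0.08). All 3 were above number 2 on each array, and the signals of Itga6 and Lamb3 were weak. Collagen XVII (Col17a1), also a hemidesmosome protein, had 10.3, -0.236 and 24.3 on the number 1 arrays, of which 2 detected it, against 112, 332 and 222 on the number 2 arrays. Collagen XVIII (Col18a1), of basement membranes, had 55.3, 35.4 and 18.6 on the number 1 arrays, against 517, 621 and 528 on the number 2 arrays. Both were lower in number 1.

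Antigen presentation genes leaned to number 2, with members in both directions. Of 24 MHC and antigen presentation genes, 18 had a probe and 16 were kept, 3 called lower and 0 higher, with a median of -0.72. Without overlap, 9 lay below number 2 and 2 above, against 21.0% and 22.4% of all genes. The class I probe named RT1-A2 had 16.1, 10.2 and 7.88 on the number 1 arrays, against 2078, 2251 and 2226 on the number 2 arrays (-6.26 ± 0.2), with 1 number 1 array detecting it. RT1 class I genes are near-identical copies that differ between rat strains, so which copy this probe reads is uncertain. RT1-CE5 had 13.8, 1.15 and 7.46 on the number 1 arrays, of which 1 detected it, against 62.7, 47 and 53.3 on the number 2 arrays. The peptide transporter Tap2 had 221, 211 and 232 on the number 1 arrays, against 635, 700.3 and 586 on the number 2 arrays (-1.36 ± 0.29). The immunoproteasome subunit Psmb8 had 218, 194 and 259 on the number 1 arrays, against 611, 623 and 638 on the number 2 arrays. These 3 were lower on every number 1 array. RT1-DMb went the other way without a call, with 287, 169 and 249.7 on the number 1 arrays, against 168, 50.5 and 95.4 on the number 2 arrays (1.24 ± 0.51). Beta-2 microglobulin (B2m), the shared class I light chain, overlapped between the sets, with 20681, 21801 and 19107 on the number 1 arrays, against 27566, 26563 and 21726 on the number 2 arrays.

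Of 31 interferon-induced genes, 23 had a probe and 14 were kept, 3 called higher and 2 lower, with a median of 0.02. The GTPase Gbp2 had 2723, 2391 and 2562 on the number 1 arrays, against 735, 614 and 639 on the number 2 arrays (2.06 ± 0.21). The chemokine Cxcl10 had 396, 202 and 754 on the number 1 arrays, against 126, 82.1 and 68.5 on the number 2 arrays. Mx1 was the third higher member (1.37). Ifi47 and Ifit2 were detected on no number 1 array. They were at least 10.4-fold and 5.34-fold lower there.

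Surface genes of metastasizing ASML cells were named in a separate list of 11, of which 7 had a probe and 6 were kept. Tspan8, Itga6 and Itgb4 were called higher in number 1. Cd44, whose variant isoforms the knockdown in the tumour cells targets, was called lower, with 542, 509 and 727 on the number 1 arrays, against 1265, 1827 and 2134 on the number 2 arrays (-1.41 ± 0.21). Whether its probe reads the variant isoforms was not determined here. The tetraspanin Cd151 had 2154, 2031 and 1775 on the number 1 arrays, against 3391, 4725 and 4290.0 on the number 2 arrays, and was lower on each number 1 array without a call.

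The cell cycle and basic metabolism were covered by a list each. Of 35 mitosis and replication genes, 30 had a probe and 29 were kept, 0 called and all 29 overlapping, with a median of 0.24. Over all genes, 4.92% were called higher and 5.11% lower. Without overlap, 22.4% of all genes lay above number 2 and 21.0% below. Cenpf, of the kinetochore, had 84.6, 136 and 214 on the number 1 arrays, against 25.3, 100.4 and 192 on the number 2 arrays. Kif23, of cytokinesis, had 589, 765 and 1131 on the number 1 arrays, against 236, 449 and 818 on the number 2 arrays. Both were lowest with wt exosomes in each set. Of 15 housekeeping genes, 10 had a probe and all 10 were kept, with 0 calls and a median of 0.04. With 10 genes, a count of 0 is near the share over all genes. Without overlap, 3 of the 10 lay above number 2 and 1 below. Pgk1 had 15658, 16578 and 16926 on the number 1 arrays, against 14053, 10665 and 13037 on the number 2 arrays. Rpl13a had 7366, 6314 and 6677 on the number 1 arrays, against 7447, 9561 and 10241 on the number 2 arrays.

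Markers of other cell types were scanned in the same way. Of 17 endothelial markers 13 had a probe, and their summed signal was 382 to 669.7 on number 1 arrays, against 162 to 179 on number 2 arrays. Of the 8 kept, 1 was called higher: Tek, the angiopoietin receptor, made up most of the number 1 sum, with 329.9, 274 and 506 on the number 1 arrays, against 37.6, 16.3 and 39.7 on the number 2 arrays. Leukocyte markers, 13 of 20 with a probe, summed to 235 to 882 in number 1 and 125 to 573 in number 2, with at most 4 detected. The 2 that were kept, Cd68 with 423, 218 and 829 on the number 1 arrays, against 521, 93.6 and 131 on the number 2 arrays, and Cd79b, were not called. Mesothelial markers, 7 of 11 with a probe, summed to 11691 to 20106 in number 1 and 2358 to 5584 in number 2, and 2 of 6 kept were called higher, Krt19 and mesothelin (Msln, 9318, 8509 and 5116 on the number 1 arrays, against 4376, 1264 and 1754 on the number 2 arrays). Wt1, a mesothelial factor, was detected on all number 1 and no number 2 arrays at a weak signal (47.9, 54.8 and 19.3 on the number 1 arrays, against -6.73, -4.44 and -9.03 on the number 2 arrays), while Nkain4 was called lower (-3.85 ± 1.19). Smooth muscle and pericyte markers, 9 of 11 with a probe, summed to 6066 to 9276 in number 1 and 1826 to 2898 in number 2, with Des the 1 call among 5 kept. Desmin (Des) alone made most of the number 1 sums, with 7828, 4935 and 8943 on the number 1 arrays, against 476, 215 and 525 on the number 2 arrays, and the list had a median of -0.29. Smoothelin (Smtn, -1.35 ± 1.27) and calponin (Cnn1, -1.12 ± 0.52), of the contractile apparatus, were lower on every number 1 array without a call. Schwann and neural markers, 7 of 11 with a probe, summed to 135 to 278 in number 1 and 95.7 to 222 in number 2. Of the 3 kept, nestin (Nes) was called, detected on all number 1 and no number 2 arrays, at least 2.98-fold higher. The part of any of these in the contrast was not tested. The 8 listed genes of the sex chromosomes were not analysed here.

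**Figure D3:**
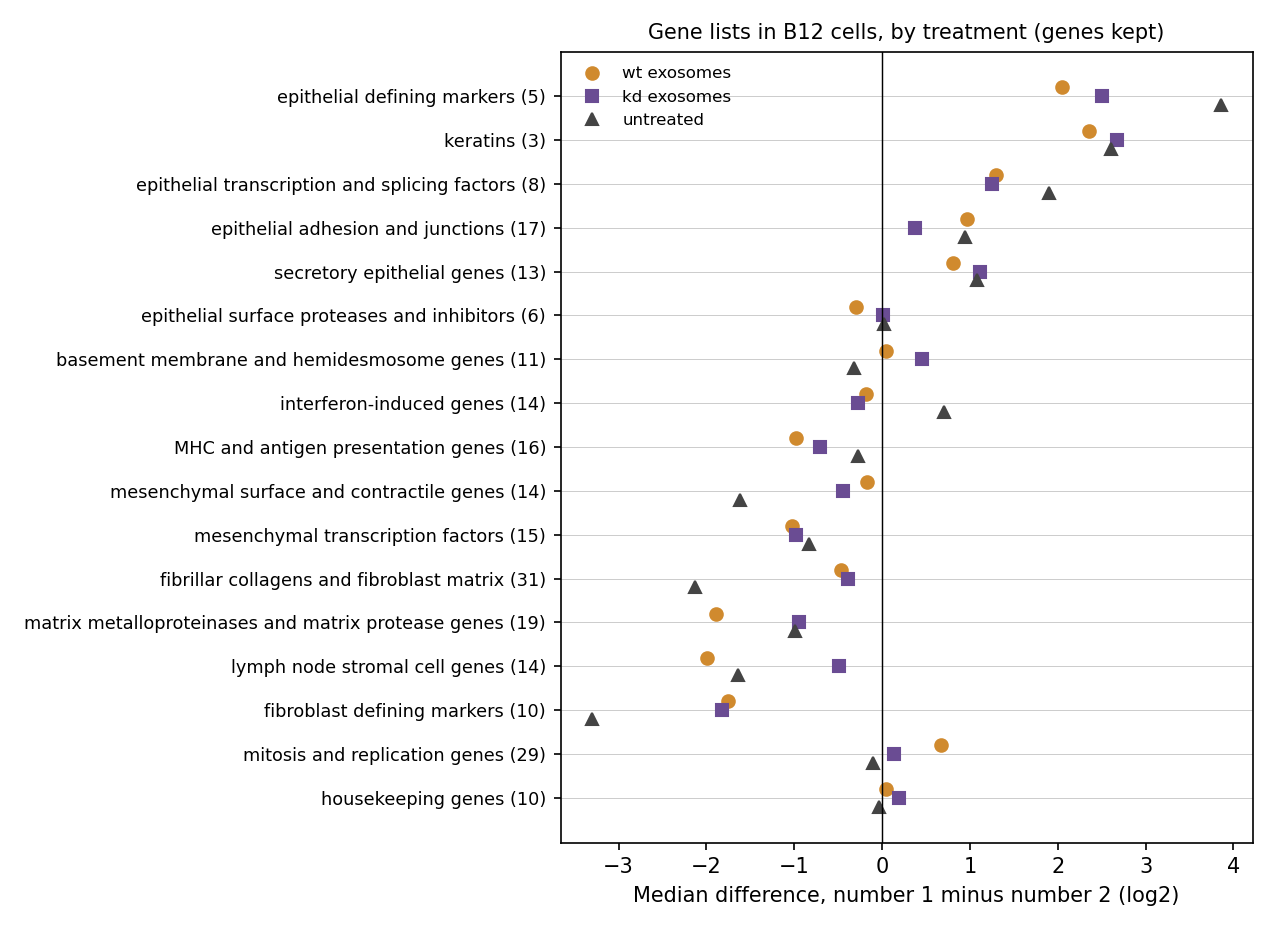
Median log2 difference, number 1 minus number 2, over the kept members of each gene list (number kept in brackets), with wt exosomes (circles), kd exosomes (squares) and untreated cells (triangles). Epithelial lists other than the surface proteases lie right of 0 and fibroblast, stromal and protease lists left of it; the fibroblast matrix list is at -2.13 in untreated cells and at -0.47 and -0.39 in treated cells.

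The gap between the numbers was open in each treatment but not equally wide. The SD of the differences over the probes was 0.93 with wt exosomes, 1.07 with kd exosomes and 1.13 without treatment. Single treatments gave 945, 1036 and 1173 probes at least 2-fold higher, in the same order, and 841, 1085 and 1086 at least 2-fold lower. For the 534 probes called higher, the median difference was 1.87 with wt exosomes, 2.26 with kd exosomes and 2.45 without treatment. For the 559 called lower it was -2.09, -2.37 and -2.45. With 1 array for each treatment and number, no spread is left to test whether treatment moved the gap.

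The share of signal that the low set retained is given here by array. The probes higher in number 1 gave on the number 2 arrays a median of 20.4% of their number 1 mean with wt exosomes, 8.22% with kd exosomes and 14.7% without treatment. Of these 534 probes, 352 were highest on the wt exosome array among the 3 number 2 arrays, and 339 were lowest on the kd exosome array. The probes lower in number 1 gave on the number 1 arrays a median of 11.6% of their number 2 mean with wt exosomes, 10.6% with kd exosomes and 6.89% without treatment. Of these 559 probes, 286 were lowest on the untreated array. The order of the arrays was not counted over all probes kept, so these counts have no background share beside them. The median retained signal thus differed between arrays of 1 number. The probes were chosen for a gap of at least 2-fold on these same arrays, so the percentages are a description. What set these percentages was not tested.

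**Figure D4:**
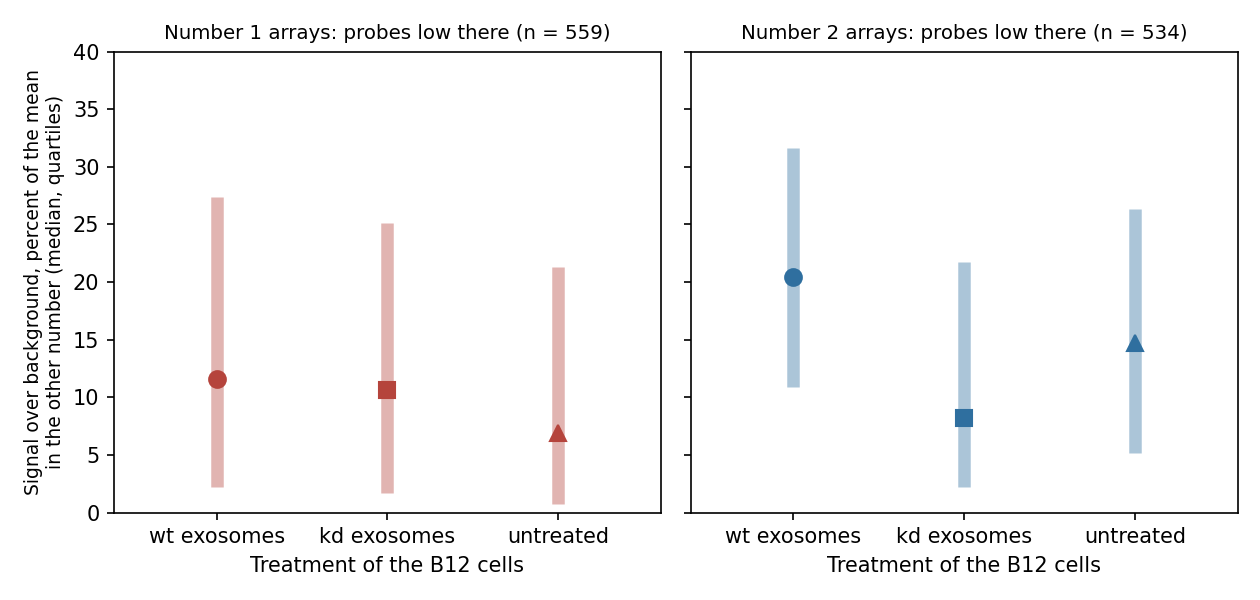
Signal over background on the arrays where a probe was low, as a percent of its mean on the 3 arrays of the other number; points are medians and bars span the quartiles over probes. Left, the 559 probes lower in number 1 on the number 1 arrays, with medians of 11.6%, 10.6% and 6.89%; right, the 534 probes higher in number 1 on the number 2 arrays, with medians of 20.4%, 8.22% and 14.7%.

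The effect of treatment is a readout that the numbering did not use. Fitted with limma over all B12 arrays without the number, 0 of 11999 probes (0.0%) passed an adjusted p of 0.05 for wt exosomes against untreated, for kd exosomes against untreated, or for kd against wt exosomes. The smallest adjusted p was 1 in each. At an unadjusted p under 0.05, 297 (2.48%), 258 (2.15%) and 208 (1.73%) probes were found. With the number as a block, the adjusted counts were again 0, with smallest adjusted p-values of 0.558, 0.861 and 1 by limma. The unadjusted counts then were 656 (5.47%), 666 (5.55%) and 403 (3.36%). In the fit without the number, the difference between the numbers is the residual spread, so a gene chosen for that difference could hardly be called, and with the block 2 residual degrees of freedom remain. The counts of 0 therefore say nothing about how the genes that differ between the numbers responded to treatment.

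The exosome arrays were not used by the numbering either. Of the 534 probes higher in number 1, 236 (44.2%) were detected on all 6 exosome arrays, against 6746 (56.2%) of all 11999 probes, and 115 (21.5%) on none, against 1120 (9.33%). Of the 559 lower in number 1, 176 (31.5%) were detected on all 6 and 165 (29.5%) on none. Across probes, which are not independent replicates, the rank correlation with an exosome array was 0.603 to 0.767 for number 1 arrays and 0.59 to 0.731 for number 2 arrays. The number 1 array had the higher correlation in each of the 18 pairs of a treatment and an exosome array. The pairs reuse the same arrays and probes, so they are not independent. Some gaps were small, such as 0.603 against 0.596 for wt exosome cells with kd exosome array 3. All B12 and exosome arrays were on 1 chip.

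Gene by gene, the exosome arrays detected some of the genes higher in number 1 and not others. Exosome and cell signals are given over each array's own background and were not scaled to each other. Epcam, at background in all B12 arrays, had 514 to 1331 (median 974) on the 6 exosome arrays. Cldn3 had 208 to 509 (median 343) and Rab25 439.6 to 1129.9 (median 777), where the B12 arrays were at background or weak. Krt7 had 1004 to 2894 (median 1813) and Krt19 5738 to 13121 (median 9212), both detected on all 6. Krt8 had 2292 to 7167 (median 4598). It was detected on all 6, as were Elf3, F11r, Jup, Lsr and Tspan8, which were also higher in number 1. In contrast, Scgb1a1 and Prr15, strong in number 1, were detected on no exosome array, and Cdh1 on 2 of 6, with -5.2 to 9.96 (median 2.66). Pdgfra and Lum, strong in number 2, were detected on none, while Cxcl12 had 5.09 to 34.4 (median 28.7). The marker sums gave 9386 to 23783 for the epithelial list and 761 to 1637 for the fibroblast list on exosome arrays. Krt8 and Krt19 made up most of each epithelial sum.

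**Figure D5:**
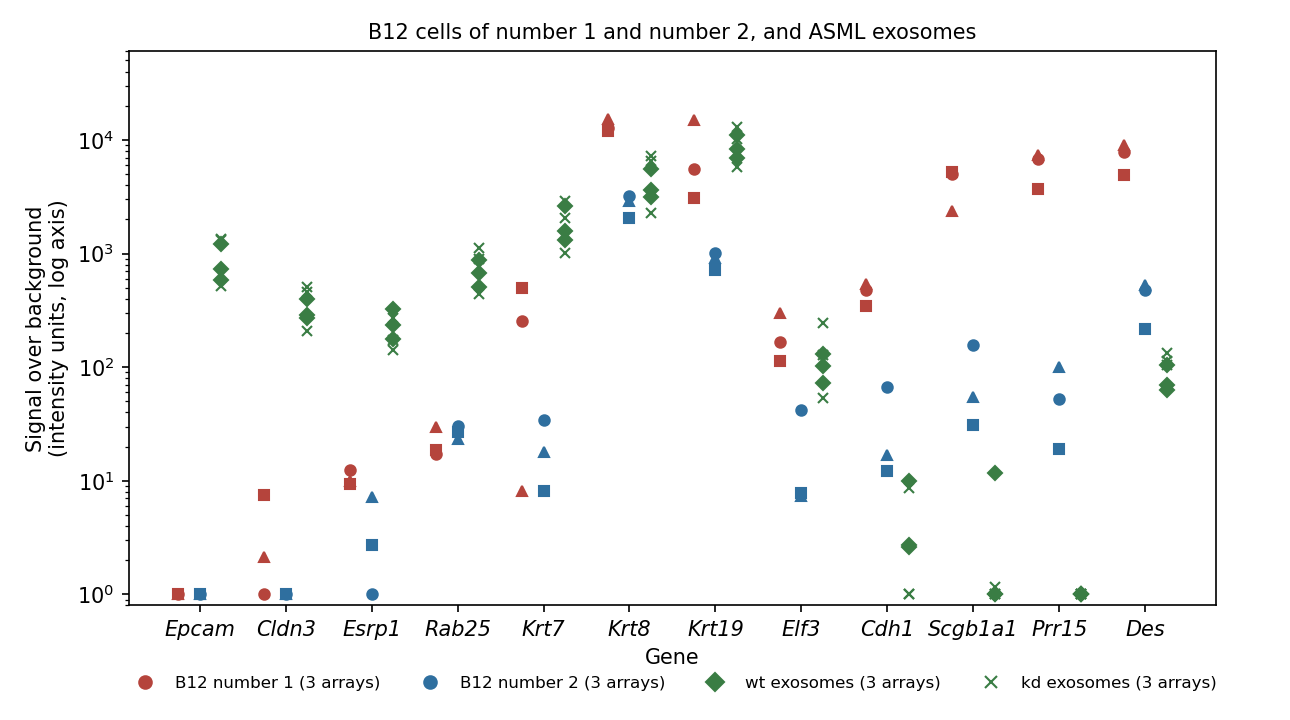
Signal over background (intensity units, log axis) of 12 genes in B12 cells of number 1 (red) and number 2 (blue), with circles for wt exosomes, squares for kd exosomes and triangles for untreated cells, and in wt exosomes (green diamonds) and kd exosomes (green crosses); values under 1 are drawn at 1. Epcam, Cldn3, Esrp1 and Rab25 are at background or weak on B12 arrays and stronger on exosome arrays, Scgb1a1, Prr15 and Des are highest in number 1, and Krt8 and Krt19 are strong in number 1 and in exosomes.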

How the data were processed

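RNA was labelled as biotinylated cRNA, per the labels' protocols. Per the file headers, the deposited non-normalized table gives each probe's mean intensity on an array beside a p-value; its software is not named in the sources used here. This p-value was near 1 at background and small on both sides, so it was read as two-sided; a probe was detected at p under 0.05 and an intensity above background, the median of probes with p above 0.9. The authors' deposited value table, linear intensities normalized by a method not stated, served as an alternative. Of 23365 rows, 848 without identifier and 571 with one of 280 repeated identifiers were left out, leaving 21946 probes. Of these, 13129 had 1 gene symbol in the platform table, 0 several and 8817 none; 13088 matched the GRCr8 gene table, which changed 0 symbols.

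The 6 B12 arrays were background-corrected (normal-exponential model, offset 16), quantile normalized and taken as log2 (neqc, limma 3.58.1, R 4.3.3). The 11999 probes detected on all arrays of a treatment group or of a number were kept. Of these, 368 were kept through a number alone, so a difference between the numbers among them follows in part from the filter. Tables were made with Python 3.11.15, pandas 2.3.3 and numpy 2.4.6. Differences were taken within each treatment. Where no array of a number detected a probe, only a bound is given: the other number's mean log2 signal against the mean, per array, of the higher of the lowest detected signal and the probe's own. Of several probes for a gene, the brightest was used; Axl and Mcm5 had a second probe.

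Treatment was tested with limma (lmFit, eBayes with trend), two-sided, with Benjamini-Hochberg adjustment and 3 residual degrees of freedom, or 2 with the number as a block; the scripts were tested on simulated data. Deviations from the treatment means correlated at 0.794, 0.798 and 0.821 between arrays with the same number, so the numbers were read as pairing the arrays, on the data's evidence and not the labels'; with 2 arrays per group these deviations mirror each other. Nothing says that replicates are separate cultures, so p-values measure the spread between these arrays, which may be technical.

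Members and the 28 gene lists were chosen with earlier results of these data known. Genes named were the 10 with the largest mean difference in each direction among those whose arrays do not overlap, up to 5 kept members of each list with the largest absolute difference, all defining markers, and Cd44, Tspan8, Cdh1, Epcam, Vim, Cdh2, Pdgfra, Cxcl12, Zeb1 and Esrp1; provisional symbols were skipped. Other list members are named with their call. Promoters of Epcam and Pdgfra were chosen by rule, those of Krt8 and Elf3 after the values were seen.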

Additional observations from a re-analysis of the deposited data

Results flagged for a closer look

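For 4 lists, the median shift after exosomes had one sign in number 1 and the other in number 2, with both exosome types. In each sentence, the values are median log2 differences from the untreated array of the same number, first with wt and then with kd exosomes. None of these differences between the numbers was tested, since each rests on 1 array per treatment and number, and the untreated array enters both values. The epithelial transcription and splicing factors gave -0.71 and -0.95 in number 1, against 0.19 and 0.1 in number 2. Fibrillar collagens and fibroblast matrix genes gave 0.94 and 1.08 in number 1, against -0.27 and -0.16 in number 2. MHC and antigen presentation genes gave -0.2 and -0.31 in number 1, against 0.29 and 0.16 in number 2. Interferon-induced genes gave -0.42 and -0.64 in number 1, against 0.34 and 0.18 in number 2. Of 154 named genes, 0 moved at least 0.5 in opposite directions in both comparisons. The arrays of a group are too few for a single array to be called an outlier.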

How the results depend on the processing

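The count of probes called higher in number 1 (534) was 260 without background correction, 182 with the authors' values, 336 among probes detected on all 6 arrays, 270 at 3-fold, and 840 when a mean of 2-fold with arrays that do not overlap was asked. The count called lower (559) was 317, 219, 336 and 324 under the first 4 of these. Without the probes kept through a number alone, 470 were called higher and 442 lower. There the higher count was the larger, unlike in the main setting. Leaving out a treatment gave 643 to 686 higher and 615 to 688 lower. The junction list's median (0.75) was 0.23 without background correction, 0.21 with the authors' values, 0.27 without the filter and 1.44 for genes detected on all 6 arrays. The keratin median (2.45, 3 genes) was 2.8 with all 12 arrays normalized together, 2.68 with the authors' values, 0.12 without the filter, 2.71 on all 6 arrays and 2.33 to 2.64 with a treatment left out. The lymph node stromal median (-1.37) was -0.17 without the filter and -1.82 to -1.07 with a treatment left out. The defining epithelial median (2.63) was 1.44 with the authors' values and 0.24 without the filter. The defining fibroblast median (-2.2) was -1.25 without the filter, -1.0 on all 6 arrays and -1.25 when detection on all arrays of a treatment group was asked, a filter added after the data were seen. Lists without the filter hold more genes at background; the causes of the other shifts were not tested. Ranges with a treatment left out were 0.51 to 0.96 for junctions, 2.34 to 3.18 and -2.52 to -1.78 for the defining lists, and -1.32 to -0.39 for fibroblast matrix, where the untreated cells set the upper end.

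Of 312 values over 26 lists, 244 moved by less than the SD and 68 by more; of 1775 values over 154 named genes, 1498 and 277; 0 reversed. The moves were uneven between settings. Of the 154 genes, 99 moved by more than the SD with the authors' values and 77 without background correction. With offset 50 it was 50, and with all 12 arrays normalized together 48. Cyclic loess and each treatment left out moved 0. Of the 26 lists, 13 moved with the authors' values. Other scalings and background corrections gave a median of all probes between -0.02 and 0.02. The replicate block gave 0 treatment calls, as did each of the other settings and each array left out; unadjusted counts were 656, 666 and 403 with the block, against 297, 258 and 208 without.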

Other observations

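Genes in the next 2 paragraphs were chosen after their values were seen, and their values are descriptions. Several genes of gut and liver epithelium stood beside the epithelial genes of number 1. Other listed epithelial genes did not: Hnf4a, Foxa2, Tff3, Agr2, Muc1, Pigr and Cftr had a probe that did not pass the filter. Reg3b and Reg3g passed it and were not called. The lectin Lgals4, of intestinal epithelium, had 12404, 7451 and 19179 on the number 1 arrays, against 1239, 688 and 775 on the number 2 arrays (3.9 ± 0.82). Cathepsin E (Ctse), of gastric epithelium, had 590.4, 449 and 1235 on the number 1 arrays, against 87.6, 23.1 and 50.7 on the number 2 arrays. Plastin 1 (Pls1), of microvilli, had 753, 322 and 1702 on the number 1 arrays, against 26.9, 41.5 and 42.3 on the number 2 arrays. All 3 were highest in untreated number 1 cells. The brush-border phosphatase Ptprh had 478, 340.5 and 958 on the number 1 arrays, against 36.9, 22.7 and 39.5 on the number 2 arrays. The fatty acid receptor Ffar4 had 663, 389 and 1506 on the number 1 arrays, against 66.4, 14.4 and 42.2 on the number 2 arrays. Both were highest in untreated number 1 cells. The oxidase Duox2, of mucosal surfaces, had 550.4, 431 and 342 on the number 1 arrays, against 32.8, 21.3 and 11.5 on the number 2 arrays, of which 2 detected it. The prostaglandin-degrading enzyme Hpgd had 3888, 2062 and 4929 on the number 1 arrays, against 672, 149 and 408 on the number 2 arrays. The surface protein Cd24 had 1898, 1571 and 2201 on the number 1 arrays, against 311, 39.9 and 70 on the number 2 arrays. The liver genes Afp and Apoh were detected on all number 1 and no number 2 arrays, at least 8.5-fold and 9.8-fold higher. Single enzymes of drug and lipid metabolism, picked in the same way and not a list, were among them. The cytochrome Cyp3a9 had 7398, 5631 and 8654 on the number 1 arrays, against 662, 394 and 2191 on the number 2 arrays. The aldehyde dehydrogenase Aldh3a1 had 1569, 948 and 2295 on the number 1 arrays, against 446, 61.5 and 62.9 on the number 2 arrays. The epoxide hydrolase Ephx2 had 327, 202 and 352 on the number 1 arrays, against 22.6, -5.94 and 5.75 on the number 2 arrays, of which 1 detected it. All 3 were higher in each treatment, as was the glutathione transferase Gsta2, with 341, 297 and 382 on the number 1 arrays, against 15.9, 13.4 and -8.62 on the number 2 arrays, of which 1 detected it. Cyp2c11, detected on no number 2 array, was at least 15.2-fold higher in number 1.

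On the number 2 side, the innate receptor Tlr2 had 4.13, 17.3 and 9.46 on the number 1 arrays, of which 1 detected it, against 2639.9, 2649 and 1494 on the number 2 arrays (-6.28 ± 0.57). Cd48, a surface protein known from leukocytes, had 20.3, 12.3 and 19.9 on the number 1 arrays, of which 2 detected it, against 2008, 2189.9 and 2307 on the number 2 arrays, while 11 of 13 leukocyte markers with a probe did not pass the filter. The angiotensin receptor Agtr1a was detected on no number 1 array and was at least 53-fold lower there. The integrin subunit Itgb1, which most adherent cells use, ran the other way, with 10883, 9722 and 7614 on the number 1 arrays, against 1680.2, 394 and 789.9 on the number 2 arrays (3.66 ± 0.97).

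Krt7 differed between treated and untreated arrays of number 1. Its log2 difference from the untreated array was 3.37 with wt and 4.46 with kd exosomes in number 1, and 0.61 and -0.42 in number 2. On the exosome arrays it had 1004 to 2894 (median 1813). Neither difference was tested beyond the limma fit over all probes, in which it was not called.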
